A study of Rattus norvegicus with 8 samples.

Results

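The IgLON genes Negr1, Lsamp, Ntm and Opcml were followed through every polyadenylation (APA) site that the deposited rat hypothalamus table assigns to one of these 4 symbols. They held 468 of the 73922 sites: 165 for Lsamp, 122 for Ntm, 106 for Opcml and 75 for Negr1. The 4 genes are among 12255 gene symbols in the table, whose median gene has 2 sites. IgLON proteins are small immunoglobulin-superfamily proteins held on the outer neuronal membrane by a glycosylphosphatidylinositol anchor. They bind to themselves and to each other on facing membranes and are known for roles in neurite outgrowth, fasciculation and synapse formation. NEGR1 (neuronal growth regulator 1) lies at a locus associated with human body mass index, Lsamp encodes the limbic system-associated membrane protein, Ntm encodes neurotrimin, and Opcml encodes an opioid-binding cell adhesion protein.

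The samples came from adult male Long-Evans rats. The obesity group (4 rats, labelled diet-induced obesity) had free access to a high fat diet and the control group (4 rats) ate standard chow, both for 36 days. Only one sex, one strain and one diet period were covered, and body weights were not analysed here. Each hypothalamus gave 1 library of whole transcriptome termini site sequencing (WTTS-seq), which reads the poly(A)-bearing ends of RNA, so that a gene's reads fall into sites where transcripts end or where an A-rich stretch was primed. Libraries held 1417531 to 1957726 reads, of which 0.390% to 0.614% lay at IgLON sites.

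Markers were read first as a check of tissue and of cell content. Of 13 neuropeptide genes listed for hypothalamus, 11 were measured and all 11 had reads in every library. Their summed level was 1241 to 1671 CPM (reads scaled to a common library size) in control and 1009 to 1290 CPM in obesity libraries (two-sided exact permutation p = 0.0571). By edgeR, 4 of the 11 had an unadjusted p under 0.05, where 2.54% of all genes were higher and 2.58% lower. Of the 11, called or not, 4 had a log2 fold change above 0. Neuronal markers (8 of 9 measured) summed to 4903 to 7686 CPM in control and 4398 to 6754 CPM in obesity. The 12 oligodendrocyte markers summed to 17767 to 23225 CPM and 13748 to 21559 CPM, and the 8 astrocyte markers to 3453 to 4652 CPM and 2533 to 3966 CPM, in the same order. Microglial markers (4 of 8 measured) summed to 82.2 to 129 CPM and 34.6 to 110 CPM, the 4 markers of oligodendrocyte precursors to 27.4 to 55.3 CPM and 32.5 to 70.8 CPM, and the 3 endothelial markers to 42.8 to 78.6 CPM and 39.8 to 110 CPM. Neighbouring tissue was read from 5 thalamic markers, at 446 to 624 CPM and 314 to 566 CPM, and from anterior pituitary markers (3 of 5 measured), at 17.9 to 56.0 CPM and 6.13 to 127 CPM. All these ranges overlapped between the groups. At an unadjusted p under 0.05 by edgeR were 1 neuronal, 2 oligodendrocyte, 1 astrocyte, 1 microglial and 1 pituitary marker, and none for precursors, endothelium or thalamus. The two-sided exact permutation p of these other sums ran from 0.171 (astrocytes) to 0.971 (oligodendrocyte precursors). The choroid plexus marker Ttr stood at 98.0 CPM in obesity library 4 and at 0 to 1.52 CPM in the others. In bulk tissue, fewer cells of a type and less RNA per cell cannot be told apart, and the part of cell content in the results was not tested.

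All 4 genes are long, and their sites were strewn along almost the whole locus. On Rnor_6.0 the Negr1 sites lay on chromosome 2, plus strand, from 262922739 to 263652440, a span of 729.7 kb. Lsamp sites ran over 637.3 kb of the minus strand of chromosome 11, from 58795873 to 59433211. Opcml and Ntm face each other on chromosome 8. Opcml sites occupied the plus strand from 28845241 to 29967295 (1122 kb) and Ntm sites the minus strand from 30039332 to 31041541 (1002 kb), so that their most 3′ sites were 72.04 kb apart. Of the 468 sites, 455 were on the strand of the gene and 13 were assigned to the gene from the other strand. No annotation of this build was used, so sites were placed by their distance from the most 3′ site of the gene on its own strand and not as exonic, intronic or UTR.

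**Figure D1:**
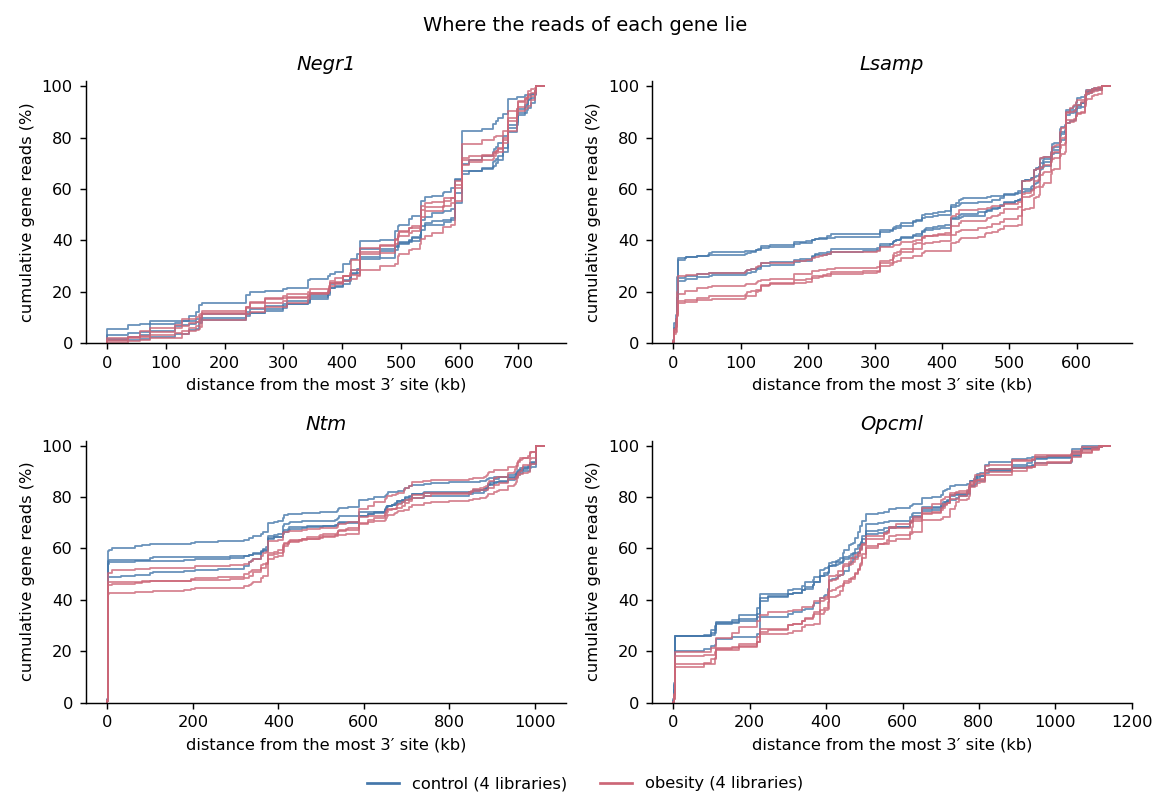
Cumulative share of the reads of each IgLON gene (y axis, %) against the distance of its sites from the most 3′ site (x axis, kb). With reads of all 8 libraries summed, Ntm reached 51.0% within 10 kb, whereas Negr1 reached 1.74%.

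The genes differed in how their reads were spread. Lsamp had 27785 reads and Ntm 21513, against 8627 for Opcml and 5406 for Negr1, which placed them at ranks 22, 34, 145 and 291 of 12255 genes by reads. Ntm was concentrated: 1 site at chromosome 8, 30040523 to 30040545, held 37.4% of its reads, 1.21 kb from the most 3′ site. The leading Opcml site (chromosome 8, 29963359 to 29963430) held 16% and lay 3.92 kb from the 3′ end. The leading sites of the other 2 genes were far inside the locus: the Negr1 site at chromosome 2, 263047691 to 263047796, held 11.4% of reads 604.7 kb from the 3′ end, and the Lsamp site at chromosome 11, 59379621 to 59379628, held 5.65% at a distance of 583.8 kb. Reads within 10 kb of the most 3′ site made up 1.74% of same-strand reads in Negr1, 20% in Opcml, 23.4% in Lsamp and 51.0% in Ntm. Within 5 kb the Lsamp share was 9.58%, below that of Opcml.

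Sites in the terminal window were broader than those inside the loci, with a median width of 23 bases against 13 in the 4 genes (15 against 12 over all genes). Reads appeared in all 8 libraries at 101 of 165 Lsamp, 62 of 122 Ntm, 61 of 106 Opcml and 44 of 75 Negr1 sites. The 4 leading Ntm sites together held the majority of its reads, whereas 17 sites were needed in Lsamp, 17 in Negr1 and 20 in Opcml. The median site of the 4 genes had 57 reads over the 8 libraries, so that a typical single site rests on few reads per library.

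Whether the diet groups differed in gene output was asked first from gene totals, the summed reads of all sites on the gene's strand. Negr1 stood at 498.0, 407.5, 383.6 and 459.8 CPM in control libraries 1 to 4 and at 621.2, 452.1, 506.1 and 523.4 CPM in obesity libraries 1 to 4. Obesity exceeded the same-numbered control in 4 of 4 pairs, but obesity library 2 fell inside the control range. The means of 437.2 ± 51.5 and 525.7 ± 70.5 CPM (SD, n = 4) gave a log2 fold change of 0.27 (SE 0.18, 95% interval -0.12 to 0.66) with an adjusted p of 0.942 by edgeR's quasi-likelihood test over all genes.

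Lsamp, the most abundant by reads of the 4, stood at 2354, 2406, 1901 and 2598 CPM in control and at 2826, 2253, 2334 and 3122 CPM in obesity libraries. Its groups overlapped, with means of 2315 ± 295 and 2634 ± 412 CPM (SD, n = 4), and the log2 fold change was 0.19 (SE 0.18, 95% interval -0.20 to 0.57; edgeR adjusted p = 0.962). Opcml stood at 755.8, 661.7, 677.9 and 725.0 CPM in control and at 939.6, 631.5, 814.3 and 928.3 CPM in obesity. Obesity library 2 was the lowest of all 8 and the other 3 obesity libraries were above every control. The log2 fold change of Opcml was 0.23 (SE 0.18, 95% interval -0.16 to 0.62) with an edgeR adjusted p of 0.942, and without obesity library 2 it was 0.34 with an adjusted p of 0.540.

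Ntm had the smallest difference. Its control libraries stood at 2063, 1714, 1501 and 2132 CPM and its obesity libraries at 1727, 1628, 1917 and 2592 CPM. The groups overlapped throughout, and the log2 fold change was 0.09 (SE 0.20, 95% interval -0.33 to 0.50; edgeR adjusted p = 0.990). Its sign rested on obesity library 4, without which the log2 fold change was -0.06. Iglon5, the fifth family member, was sparse, with 667 reads at 10 sites, 57.8 ± 4.24 CPM in control and 61.0 ± 12.8 CPM in obesity (log2 fold change 0.08; edgeR adjusted p = 0.991).

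**Figure D2:**
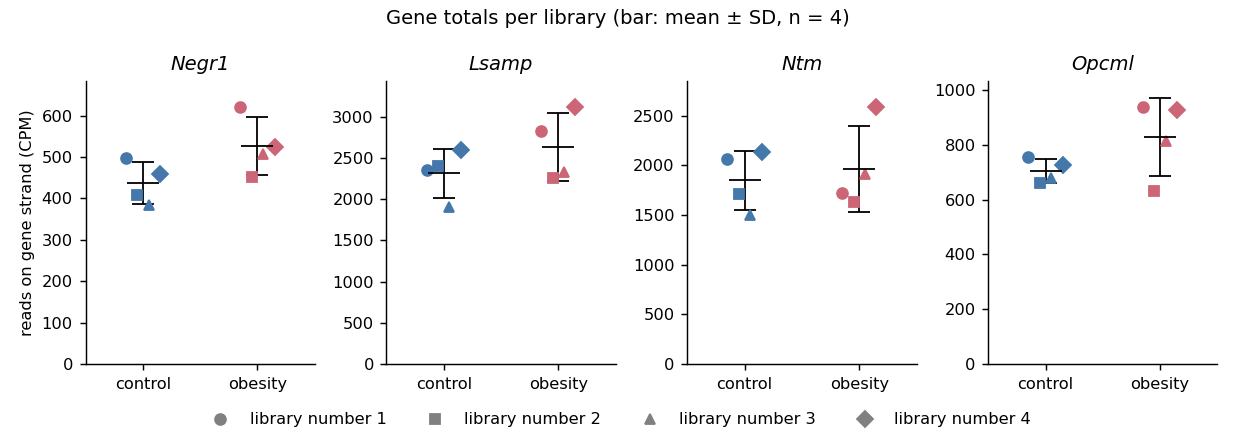
Summed level of each IgLON gene (y axis, CPM, same-strand sites) in the 4 control and 4 obesity libraries, with marker shape for library number and bars for mean ± SD (n = 4). Groups overlap in all 4 genes, and obesity library 2 is the lowest of the obesity libraries in each.

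None of the 4 totals passed an adjusted p of 0.1 by edgeR, where 0% of the 12255 genes did, and none had an unadjusted p under 0.05 (2.54% of all genes were higher and 2.58% lower at that level). DESeq2 called none of the 4 either (0.0327% of the genes it tested passed). With the library number as a block, again none passed by edgeR (0.277% of all genes did), and the adjusted p of Negr1 became 0.492. DESeq2 with the block also called none (1.06% of all genes passed). In that DESeq2 fit the unadjusted p was under 0.05 for Negr1 alone (0.0444, adjusted 0.274), where 4.01% of all genes were higher at that level. The 95% intervals of the 4 genes had lower limits of -0.33 to -0.12 and upper limits of 0.50 to 0.66 on the log2 scale. Differences between those limits, in either direction, were not excluded by these libraries. Levels are not compared between genes per length, since reads come from ends and not from whole transcripts.

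Single sites were examined next. With edgeR, 0 of the 468 IgLON sites passed an adjusted p of 0.1, against 0.00135% of all sites. Higher values in obesity with an unadjusted p under 0.05 were found at 6 sites (1.28%, background 1.72%) and lower values at 4 (0.855%, background 1.41%), both shares being below the background. With the library number as a block, 0 passed the adjusted threshold (background 0.00541%), while 17 were higher at an unadjusted p under 0.05 (3.63% of sites, background 2.79%) and 9 lower (1.92%, background 3.31%). DESeq2 without the block also called 0 sites at an adjusted p of 0.1 (background 0.0136%), with 12 higher (background 2.33%) and 3 lower (background 1.53%) at an unadjusted p under 0.05.

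Among the 159 sites with a mean of at least 10 reads per library, 3 were higher in CPM in every obesity library than in every control (1.89%, background 1.55%). By the same CPM rule 1 was lower (0.629%, background 2.15%). The 3 higher sites all lay deep in the 5′ part of Ntm, 938.2 to 989.6 kb from its 3′ end. The site at chromosome 8, 30999317 to 30999357, had 13, 19, 11 and 17 reads in control and 34, 23, 48 and 31 in obesity libraries, or 9.38 ± 1.97 against 19.2 ± 3.65 CPM (SD, n = 4; log2 fold change 1.03, SE 0.43). The site at 30977524 to 30977533 went from 0, 9, 16 and 7 reads to 24, 20, 35 and 33 reads (log2 fold change 1.57, SE 0.75). The last of them, at 31028919 to 31028920, had 40, 25, 18 and 23 reads in control and 41, 34, 45 and 56 in obesity (log2 fold change 0.62, SE 0.39). Its raw reads overlapped between the groups, and in CPM the highest control stood at 22.5 and the lowest obesity library at 22.8. Together these 3 sites held 2.89% of the reads of Ntm, and their edgeR adjusted p was 1.00 each.

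The lower site was in Opcml at chromosome 8, 29965171 to 29965181, 2.12 kb from the 3′ end. It had 41, 43, 24 and 31 reads in control and 25, 19, 7 and 7 in obesity libraries. These raw reads overlapped, while in CPM the lowest control was at 17.6 and the highest obesity library at 14.2. The means were 21.5 ± 3.12 and 8.70 ± 5.75 CPM (SD, n = 4), and the log2 fold change was -1.31 (SE 0.53, 95% interval -2.44 to -0.17; edgeR adjusted p = 1.00). The leading Ntm site, by contrast, was level at 595 ± 153 and 597 ± 181 CPM (log2 fold change 0.00, 95% interval -0.62 to 0.63). Its reads were 1281, 833, 609 and 1113 in control and 796, 695, 1195 and 1515 in obesity, a spread of the libraries wider than any difference of the means.

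The other leading sites overlapped between the groups. The leading Opcml site had 204, 181, 175 and 142 reads in control and 146, 129, 234 and 171 in obesity libraries (110 ± 14.9 and 96.6 ± 15.5 CPM, SD, n = 4). The leading Negr1 site had 123, 44, 26 and 65 reads in control and 170, 31, 79 and 80 in obesity, with control and obesity library 1 the highest of their groups (log2 fold change 0.37, SE 0.50). Its sign turned to -0.16 without obesity library 1.

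The most 3′ sites were minor sites in each gene. In Lsamp this site (chromosome 11, 58795859 to 58795879) had 10, 17, 23 and 12 reads in control and 13, 16, 24 and 11 in obesity, and in Ntm (chromosome 8, 30039330 to 30039344) 8, 15, 17 and 12 reads against 19, 9, 6 and 13. The most 3′ Opcml site (chromosome 8, 29967295 to 29967307) had 0, 15, 6 and 4 reads in control and 4, 2, 0 and 0 in obesity, a log2 fold change of -2.04 with an SE of 1.35. All of these overlapped between the groups.

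Under one alternative, DESeq2 with the library number as a block, 4 sites had an adjusted p under 0.1 (0.855%, background 0.323%). They are named here after their values were seen. An Ntm site at chromosome 8, 30040488 to 30040512, beside the leading site, had 107, 225, 175 and 258 reads in control and 32, 126, 120 and 166 in obesity, lower in 4 of 4 pairs (log2 fold change -0.91; adjusted p = 0.0202 by that DESeq2 fit, 1.00 by edgeR and 0.260 by edgeR with the block). A site near the 5′ end of Ntm (31041459 to 31041522, 1002 kb from the 3′ end) had 183, 208, 126 and 177 reads in control and 109, 139, 69 and 91 in obesity (log2 fold change -0.83; DESeq2 adjusted p = 0.0587).

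The other 2 were internal Lsamp sites. The one at chromosome 11, 59314755 to 59314788, had 126, 168, 64 and 150 reads in control and 301, 138, 290 and 280 in obesity, so that obesity library 2 again lay within the control range (log2 fold change 0.86; DESeq2 adjusted p = 0.0423 with the block, 0.773 without). The leading Lsamp site had 83, 142, 103 and 208 reads in control and 97, 195, 240 and 502 in obesity, higher in 4 of 4 pairs (log2 fold change 0.80; DESeq2 adjusted p = 0.0711 with the block and 1.00 without).

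**Figure D3:**
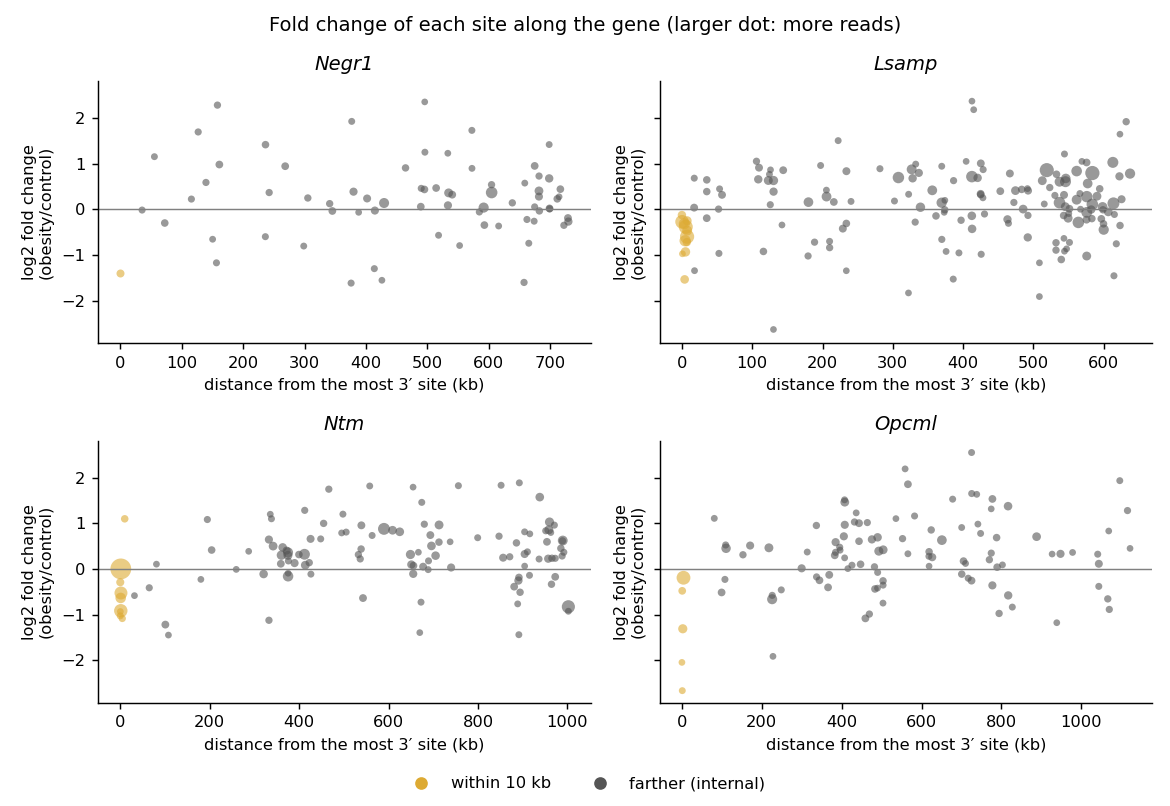
Log2 fold change of each same-strand IgLON site, obesity over control (y axis), against its distance from the most 3′ site of the gene (x axis, kb). Most sites near the 3′ end lie below 0 and most internal sites lie above it, with few of either far from 0.

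The position of a site went with the direction of its difference. Of the 27 same-strand sites within 10 kb of the most 3′ site, 2 had a log2 fold change above 0 (7.41%, median -0.63). Of the 428 other same-strand sites, 289 did (67.5%, median 0.29). Over all genes with both kinds of site, 41.9% of 13218 terminal and 58.5% of 36132 internal sites had a log2 fold change above 0. The 13 other-strand sites held 1.76% of reads, and 12 of them had a log2 fold change above 0 (median 0.85). These 13 were sparse, with a median of 39 reads over the 8 libraries, and 6 of them had reads in every library. The share above 0 over all other-strand sites is not given here, so the 12 cannot be set against it. Sites of a gene share their libraries and their locus, so these counts are descriptions without a test.

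The share of each gene's reads in its terminal 10 kb was therefore compared over libraries, a measure chosen after the site values had been seen. In Opcml it was 26.1%, 25.9%, 26.0% and 19.9% in control and 15.1%, 19.7%, 18.2% and 13.8% in obesity libraries. Every obesity library was below every control, although control library 4 and obesity library 2 were almost level. The means were 24.5% ± 3.04 and 16.7% ± 2.71 (SD, n = 4), with a two-sided exact permutation p of 0.0286, the smallest that the 70 arrangements allow. Those arrangements did not keep libraries of the same number paired. Over all 4976 genes with both terminal and internal sites, 3.05% were lower in every obesity library.

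Lsamp was lower in obesity in 4 of 4 pairs, with overlapping groups. Its terminal share was 32.3%, 33.1%, 24.2% and 25.3% in control and 19.1%, 26.0%, 16.4% and 15.5% in obesity, with obesity library 2 inside the control range. The means were 28.7% ± 4.60 and 19.2% ± 4.79 (SD, n = 4; two-sided exact permutation p = 0.0857). The Lsamp value depended on the window: within 5 kb the group means differed by -3.50 percentage points in place of -9.47 (two-sided exact permutation p = 0.257). Ntm was at 55.4%, 49.1%, 54.6% and 60.1% in control and 42.8%, 46.1%, 47.0% and 51.5% in obesity, lower in 4 of 4 pairs. Its means of 54.8% ± 4.53 and 46.8% ± 3.58 (SD, n = 4) gave a two-sided exact permutation p of 0.0571.

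The Negr1 value rested on a single terminal site, the most 3′ one at chromosome 2, 263652429 to 263652460. It had 39, 6, 14 and 9 reads in control and 8, 10, 1 and 7 in obesity libraries, so that control library 1 held 39 of its 94 reads. Its share averaged 2.75% ± 2.05 for control and 0.947% ± 0.686 for obesity libraries (SD, n = 4; two-sided exact permutation p = 0.143), and the groups overlapped. The next same-strand site downstream, assigned to no gene and not counted here, held 445 reads. Whether it is an end of Negr1 was not tested. The permutation p-values of the 4 genes were not adjusted.

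**Figure D4:**
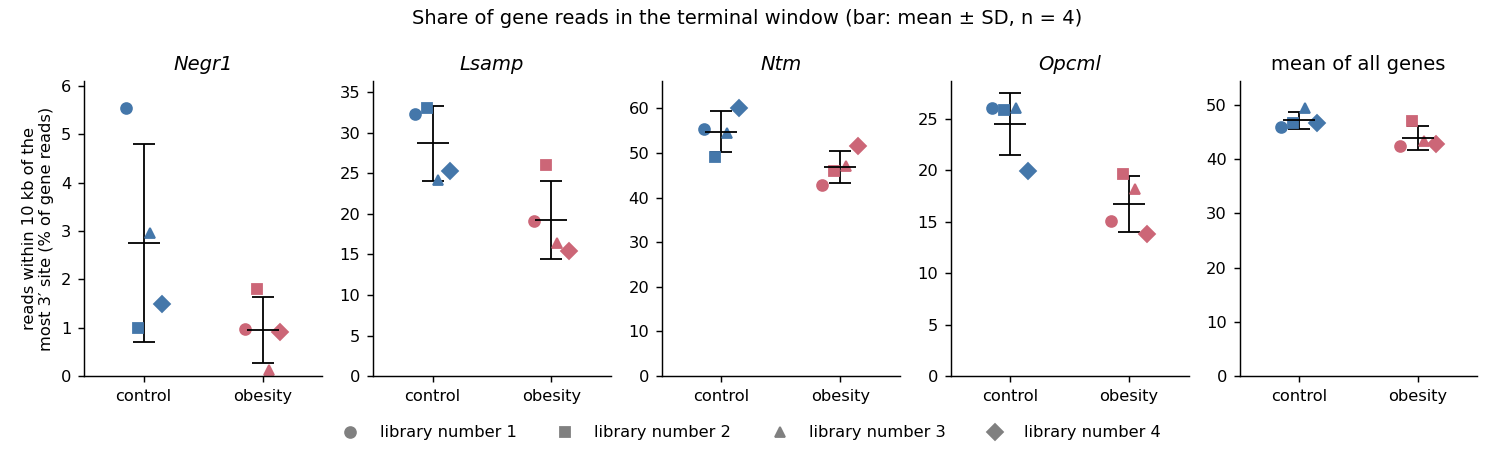
Reads within 10 kb of the most 3′ site as a percent of same-strand reads (y axis) for the 4 IgLON genes and for the mean over 4976 genes, by library, with mean ± SD (n = 4) as bars. Obesity libraries are lower on average in each panel, without overlap only in Opcml, and obesity library 2 lies among the controls in the mean over all genes.

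The same measure was lower on average across the whole table, beyond the IgLON genes. The mean terminal share over 4976 genes was 45.9%, 46.8%, 49.5% and 46.7% in control and 42.4%, 47.1%, 43.4% and 42.9% in obesity libraries (47.2% ± 1.55 and 43.9% ± 2.17, SD, n = 4; two-sided exact permutation p = 0.114). Obesity library 2 was within the control range and the other 3 were below it. Leaving out the 4 genes gave means of 47.2% and 44.0%. Of all genes, 65.2% had a lower terminal share of reads in obesity, with a median difference of -2.34 percentage points. The part of this table-wide shift in the IgLON values was not tested.

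Beside that shift, the log2 ratio of terminal to internal reads differed by -1.66 in Negr1, -0.79 in Lsamp, -0.72 in Opcml and -0.45 in Ntm, where the median gene differed by -0.28. Ranked from the lowest, these were places 253, 1177, 1306 and 1964 of 4976. The edgeR adjusted p was 1.00 for each (0.0201% of genes passed 0.1), and the unadjusted p was under 0.05 for Negr1 and Lsamp (1.43% of genes were lower at that level). With the library number as a block, the edgeR adjusted p was 0.405 for Lsamp, 0.821 for Opcml and 1.00 for Ntm and Negr1 (0.0201% passed), and 3 of the 4 were lower at an unadjusted p under 0.05 (background 4.06%).

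Leaving out libraries kept the direction of all 4 ratios. Without control library 1 the Negr1 difference was -0.96 in place of -1.66. Without obesity library 2, which stood with the controls over all genes, the differences were -2.10 in Negr1, -0.99 in Lsamp, -0.81 in Opcml and -0.43 in Ntm. Terminal sums differed by -1.42 (Negr1), -0.47 (Lsamp), -0.40 (Opcml) and -0.20 (Ntm) on the log2 scale, where the median gene differed by -0.16. Internal sums differed by 0.24 to 0.32, where the median gene differed by 0.14, and none of the 8 sums passed an edgeR adjusted p of 0.1. With the library number as a block none of the 8 passed either, where 0.553% of all 9952 such sums did. The lowest edgeR adjusted p with the block was 0.139, for the Lsamp terminal sum.

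A gene-wise test of site usage, which asks whether any site departs from the rest of its gene, called none of the 4 genes (edgeR diffSpliceDGE with Simes' method, adjusted p threshold 0.1, 0% of 7996 genes passing). Their unadjusted p ran from 0.980 to 0.992, where 1.36% of genes were under 0.05. With the block it ran from 0.209 to 0.610, where 2.79% of genes were under 0.05 and 0.0125% passed the adjusted threshold.

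Libraries of the same number in the 2 groups resembled each other at single sites, and IgLON sites did so about as often as the rest of the table. In an edgeR fit of group plus library number, 39 of the 468 sites varied with the number at an adjusted p under 0.1 (8.33%, background 8.66% of all sites). They were 24 of 165 Lsamp sites, 8 of 122 Ntm sites, 5 of 106 Opcml sites and 2 of 75 Negr1 sites. Among sites with a mean of at least 10 reads, where 16.3% of all sites varied, the counts were 21 of 73 in Lsamp, 5 of 42 in Ntm, 2 of 27 in Opcml and 2 of 17 in Negr1. Whether the 4 genes differ in these shares was not tested. The gene totals did not pass (edgeR adjusted p of 0.514 for Negr1, 0.347 for Lsamp, 0.214 for Ntm and 0.506 for Opcml), where 10.7% of all genes did.

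Of the 6 sites that varied most with the number, all in Lsamp, some had reads at nearly one number alone and others were graded. The site at chromosome 11, 59258890 to 59258897, had 58 reads in control library 4 and 58 in obesity library 4, and 0 in the other 6 libraries (edgeR adjusted p = 1.92e-06). The site at 58800440 to 58800471, 4.57 kb from the 3′ end, had 9, 255, 12 and 66 reads in control and 6, 114, 31 and 53 in obesity libraries (edgeR adjusted p = 8.59e-07). A neighbour at 58802873 to 58802876 had 64 reads in control library 3 and 47 in obesity library 3, with 0 to 8 elsewhere (edgeR adjusted p = 2.29e-05).

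A further Lsamp site in the terminal window, at 58803133 to 58803235, was high for number 1, with 470, 199, 53 and 201 reads in control and 281, 142, 68 and 130 in obesity (edgeR adjusted p = 0.000219). Of the 39 sites, the mean of the same-numbered pair was highest for number 4 at 20 sites. It was lowest for number 1 at 24, a count that includes sites where number 1 was level with another number at 0. Control library 1 and obesity library 1 also had the most sites at 0 in the whole table, 14788 and 10659 of 73922, against 4062 to 6622 in the other 6. What libraries of a number have in common is not given in the labels, and why sites vary with it was not tested.

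**Figure D5:**
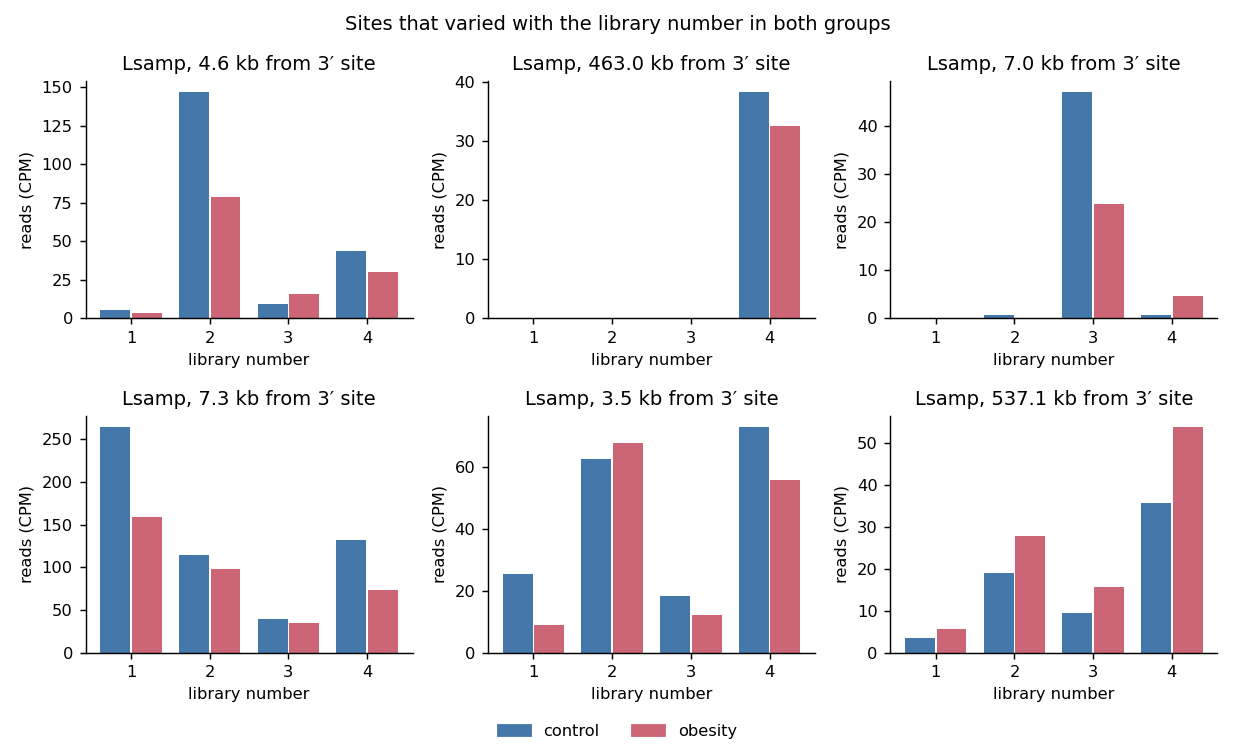
Level (y axis, CPM) at the 6 IgLON sites that varied most with library number, all in Lsamp, in control and obesity libraries of each number (x axis). In each panel both groups are high and low at nearly the same numbers.

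Other neuronal adhesion and guidance genes of the immunoglobulin superfamily gave the setting. Of 40 listed genes, 38 were measured and none passed an edgeR adjusted p of 0.1, nor by DESeq2. At an unadjusted p under 0.05, 4 were higher and none lower by edgeR, where 2.54% and 2.58% of all genes were. DESeq2 gave 5 and none, where 3.13% and 2.77% of all genes were. With the block, 8 were higher and 1 lower, where 4.76% and 6.16% of all genes were. The median log2 fold change of the list was 0.13, against 0.00 over all genes, and 26 of 38 were above 0.

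The 4 higher without the block were Dscam (0.47, SE 0.19), Dscaml1 (0.68, SE 0.27), Sdk1 (0.68, SE 0.27) and Kirrel3 (0.46, SE 0.22), log2 fold changes of homophilic adhesion genes, each with an edgeR adjusted p of 0.921. Dscam stood at 426.4, 465.0, 382.0 and 467.4 CPM in control and at 671.5, 455.4, 634.4 and 656.7 CPM in obesity. Obesity library 2 lay among the controls and the other 3 lay above them. With the block, Cadm1, Dcc, Lrfn2 and Nfasc were also higher at an unadjusted p under 0.05, and Chl1 was lower (log2 fold change -0.48).

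The 3 genes of the list with most reads differed little. Robo2, a receptor for Slit guidance cues, had a log2 fold change of 0.15 (SE 0.20), Mdga2, a membrane-anchored adhesion protein, 0.19 (SE 0.18), and Ncam1, the neural cell adhesion molecule, 0.06 (SE 0.18). The terminal share could be computed for 33 genes of the list. The log2 ratio of terminal to internal reads was lower in obesity in 25 of them, with a median of -0.43 against -0.28 over all genes. By a different measure, the mean terminal share of reads, 65.2% of all genes were lower. None of the 33 passed an edgeR adjusted p of 0.1, and 2 were lower at an unadjusted p under 0.05, where 1.43% of all genes were.

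Across the 8 libraries, the gene totals of the 4 genes varied together to different degrees. Pearson's r of log2 CPM was 0.86 for Negr1 and Opcml, 0.76 for Lsamp and Opcml, 0.75 for Lsamp and Ntm, 0.73 for Negr1 and Lsamp, 0.58 for Ntm and Opcml and 0.43 for Negr1 and Ntm. Among 4301 genes with a mean of at least 50 reads, the profile most like Negr1 was that of Mgat4c (r = 0.97), followed by Invs and Lrrtm4. The closest to Lsamp was Slc8a3 (0.99), to Ntm Brms1l (0.92) and to Opcml Pgam2 (0.99). These values describe 8 libraries that share depth and scaling factors, and the highest of 4301 correlations is large by selection.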

How the data were processed

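WTTS-seq reads from 8 hypothalamus libraries (4 control, 4 obesity; separate rats) were mapped by the authors to Rnor_6.0 with Bowtie2 2.2.3 per the labels. The deposited table gives raw read counts per site, strand and gene symbol. How reads were clustered into sites was not given in the sources used here. Every site had at least 30 reads in all, and 1 line without a site, holding the column total of control library 1 (1710888), was left out. Reads carried no molecular identifiers, so p-values cover the spread between libraries and counting error without correction for PCR copies.

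Counts per site and per gene (same-strand sites summed) were tested as deposited with edgeR 4.0.16 (TMM, quasi-likelihood F test, all 73922 sites or 12255 genes, Benjamini-Hochberg, threshold 0.1) in R 4.3.3. Site usage was tested with diffSpliceDGE. Alternatives were DESeq2 1.42.0, its size factors, filterByExpr, both strands summed, a block for library number and leaving out each library. The scripts were tested on simulated data. Same-numbered control and obesity libraries deviated together (r = 0.268 to 0.382, different numbers -0.200 to -0.0387). The fits with the block and the pair counts therefore took the numbers as pairs, from the data and the shared numbers alone. The main fits and the permutation tests did not use the pairs. No libraries were duplicates (lowest chi-square per site 2.86).

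Members and gene lists were chosen with earlier results of these data known. The 10 kb terminal window (5 and 20 kb as alternatives), the test of library number and DESeq2 with the block were chosen after seeing the data. Sites were named by rule: for each gene the site with most reads and the most 3′ site. Up to 3 sites each way were added, with groups that did not overlap in CPM and a mean of 10 reads. From the list of 40 immunoglobulin-superfamily genes, Iglon5, the 3 genes with most reads and those at an unadjusted p under 0.05 were named.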

Additional observations from a re-analysis of the deposited data

Results flagged for a closer look

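Dixon's test for a library far from the other 3 of its group was applied to 40 groups of 4 values (the gene totals, the terminal shares and the named sites), and it singled out 2. Chance singles out about 1 in 20 groups. The terminal share of Opcml in control library 4 was 19.9%, where the other 3 controls were at 25.9% to 26.1%. The Ntm site at chromosome 8, 31028919 to 31028920, was at 31.4 CPM in obesity library 4, where the other 3 obesity libraries were at 22.8 to 23.5 CPM.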

How the results depend on the processing

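The counts of IgLON gene totals, usage calls and terminal ratios past the threshold were 0 under every alternative run, and the count of sites was 0 except for 4 under DESeq2 with the replicate block. Under filterByExpr the terminal ratio of Negr1 was not tested, so the count there covers the other genes only. The block changed no other call. Ntm was the single gene total to change sign, at -0.0646 without obesity library 4. When 1 library was left out, totals ranged from 0.18 to 0.33 (Negr1), 0.11 to 0.25 (Lsamp), -0.0646 to 0.166 (Ntm) and 0.17 to 0.34 (Opcml) on the log2 scale. Sites higher at an unadjusted p under 0.05 numbered 6, but 17 with the replicate block, 12 with DESeq2, 17 with both, and 2 (without obesity library 3) to 16 (without obesity library 2) when 1 library was left out. Sites lower numbered 4, but 9 with the block, 3 with DESeq2, 6 with both, 2 with filterByExpr, and 0 (without control library 2) to 6 when 1 was left out. Over all sites, 1.72% were higher and 1.41% lower by edgeR, and 2.79% and 3.31% with the block. DESeq2 gave 2.33% and 1.53% of the sites it tested, and 2.41% and 2.43% of all sites with the block. Shares over all sites are not given here for filterByExpr or for fits with 1 library left out. Signs at 3 sites turned: the leading Ntm site (-0.00419 with the replicate block, -0.22 to 0.11 with 1 library left out), the most 3′ Lsamp site (-0.32 to 0.25) and the leading Negr1 site (-0.16 to 0.82). Windows of 5 and 20 kb gave terminal ratios between -1.65 and -0.45, while the difference in the terminal share of Lsamp was -3.50 percentage points at 5 kb against -9.47 at 10 kb. Sites with few reads have wide intervals, and counts at or near 0 limit what can be detected there.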

Other observations

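Upstream of Lsamp, on its strand and before the next named gene LOC108352336, lay 44 sites that the table assigns to no gene. They held 456, 490, 340 and 380 reads in control and 494, 313, 597 and 500 in obesity libraries, 3570 in all, and the groups overlapped. At an unadjusted p under 0.05 by edgeR, 1 of the 44 was higher in obesity and none was lower, where 1.72% and 1.41% of all sites were. Downstream of Lsamp no unassigned site lay before Gap43. Downstream of Opcml, on its strand, 2 unassigned sites together had 6, 10, 4 and 10 reads in control and 15, 7, 21 and 19 in obesity libraries. Their groups overlapped, their median log2 fold change was 1.15, and neither had an unadjusted p under 0.05 by edgeR. They were not counted in the terminal share of Opcml. For Negr1, the single unassigned site before Zranb2 had 110, 25, 37 and 62 reads in control and 127, 23, 26 and 35 in obesity libraries, high in both libraries numbered 1. It held 445 reads in all, more than the 94 of the most 3′ site assigned to Negr1.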
